A study of Homo sapiens with 3 samples.

Results

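The genes described here are 39 genes of glycolysis and of the response to low oxygen, of which 16 encode glycolytic enzymes and 23 encode transporters, regulators and other hypoxia-response proteins. They were listed by name, without a threshold on measured values, but with earlier results of these data known, and all 39 were found among the 19220 genes of the count table and also past the filter on low values, an average of 10 or more counts per library, which left 13676 genes. RNA-seq was made on CAL27, a human oral squamous cell carcinoma (OSCC) cell line held in drug-free medium, and on the derived lines CAL27/5FU and CAL27/OXA. CAL27/5FU was resistant to 5-fluorouracil (5FU), a drug against thymidylate synthesis, and was kept in medium with 10 μM 5FU. CAL27/OXA was resistant to oxaliplatin (OXA), a platinum drug that damages DNA, and was kept with 10 μM OXA. All 3 lines grew in high-glucose medium with serum, and both drugs were present only in the resistant lines, so resistance and exposure to the drug cannot be told apart. CAL27/5FU was raised by increasing doses of 5FU over months, and each resistant line is 1 derived line. The study asked which genes differ between resistant and parental cells.

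Only 1 library per line has a sample label here and was used, so differences below carry no p-value and cannot be set against replicates. Both comparisons with CAL27 also share the CAL27 library, so a departure of that library alone moves both in the same direction. Total counts were 41786182, 37297713 and 43455488 for CAL27, CAL27/5FU and CAL27/OXA. Ratios are log2 ratios of counts scaled with TMM factors and levels are given as CPM, the scaled count relative to library size. Each interval is an exact 95% Clopper-Pearson interval on a pair of counts, which covers counting error only. Past 2-fold means a log2 ratio beyond 1 in either direction. The lists, including the markers below, were chosen with earlier results of these data known. Of 12 squamous epithelial markers, 10 were past 2-fold lower in CAL27/5FU, where 6.72% of all tested genes were. In CAL27/OXA 8 were, where 9.28% of all tested genes were. KRT14 had 58222, 948 and 8423 counts in CAL27, CAL27/5FU and CAL27/OXA. TP63 (23645, 9759 and 29498 counts) and SFN (43529, 20652 and 52368 counts) were past 2-fold lower in CAL27/5FU alone. The summed level of the 12 markers was 15274, 3557 and 4941 CPM in the same order, and the part of this in the results below was not tested. The epithelial markers EPCAM (9428, 12457 and 10990 counts) and CDH1 (14800, 13459 and 15076 counts) were high in every library. Of 6 fibroblast markers 4 passed the filter on low values and 2 of these, LUM (120, 414 and 877 counts) and COL1A2 (90, 300 and 212 counts), were past 2-fold higher in both resistant lines. Of all tested genes, 8.46% were past 2-fold higher in CAL27/5FU and 6.54% in CAL27/OXA. COL1A1 had 1387, 1068 and 1050 counts, COL3A1 had 0 in each library and DCN had 2, 6 and 8, and the 6 markers summed to 41.9, 47.1 and 50.04 CPM. The 4 endothelial markers summed to 2.57, 9.35 and 4.7 CPM. CDH5 (43, 338 and 163 counts) held most of this in both resistant lines and was past 2-fold higher in each. PECAM1 (13, 6 and 11 counts) was not higher, and KDR had 0, 3 and 6. VWF (44, 19 and 29 counts) was past 2-fold lower in CAL27/5FU, with a log2 ratio of -1.14 (-2.08 to -0.41), and not in CAL27/OXA. The call of VWF was lost under other settings. The 5 immune markers summed to 81, 47 and 114 CPM, of which CD68 held nearly all, with PTPRC at 2, 0 and 0 counts.

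Glycolysis breaks glucose down to pyruvate in the cytosol, and lactate dehydrogenase turns pyruvate into lactate when it does not enter mitochondria. When oxygen is low, the prolyl hydroxylases of the EGLN family no longer mark the HIF alpha subunits for VHL-dependent breakdown. HIF then binds hypoxia response elements, whose core reads ACGTG or GCGTG, and raises genes for glucose uptake, glycolysis, pH control, angiogenesis and mitophagy. Many carcinomas, oral squamous carcinoma included, express these genes also when oxygen is present.

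The core letters were searched on both strands in the 250 bases before each start site of the RefSeq promoter table (GRCh38.p14), as ACGTG and GCGTG and their reverse complements CACGT and CACGC. The letters ACGTG overlap with the E-box CACGTG, so 1 E-box gives a match on each strand. Of the 39 genes, 34 had a window in the table, and 22 of these (64.7%) had a window with ACGTG on either strand, against 21.7% of the 27305 genes in the table. Counted by windows, 27 of 65 (41.5%) held ACGTG, against 18.5% of all 35116 windows. With GCGTG included, 41 of 65 (63.1%) held a match, against 43.2%. Glycolytic and hypoxia-response genes were listed for their known regulation, so this share describes the list. The windows of 5 genes are shown, chosen after the values were seen, and all 5 hold a match, printed in capitals. Of the 34 genes with a window, 29 held ACGTG or GCGTG. The windows of SLC2A1, EGLN3, P4HA2, PGAM1 and PKM held neither, and of these genes SLC2A1 and EGLN3 were past 2-fold lower in both lines. NDRG1 had no window in the table. CA9, ALDOC, PGK1 and LDHA were lower in both resistant lines, and ANGPTL4 was not. The CA9 window lies at chr9:35673678-35673927 on the plus strand, with its match beginning 18 bases before the start site. The LDHA window at chr11:18394313-18394562 (plus strand) holds 5 matches between 185 and 73 bases before the start, of which 4 belong to a pair of E-boxes. The ALDOC window at chr17:28576896-28577145 (minus strand) holds 5 matches between 240 and 28 bases before the start. The PGK1 window at chrX:78103998-78104247 (plus strand) holds 3 matches between 211 and 183 bases before the start. The ANGPTL4 window at chr19:8363905-8364154 (plus strand) holds 1 match, 234 bases before the start.
CA9: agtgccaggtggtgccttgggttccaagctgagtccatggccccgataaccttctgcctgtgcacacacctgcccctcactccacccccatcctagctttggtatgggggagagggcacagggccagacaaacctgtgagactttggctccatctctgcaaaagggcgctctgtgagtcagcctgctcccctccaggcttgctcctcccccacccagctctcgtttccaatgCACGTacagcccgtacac
LDHA: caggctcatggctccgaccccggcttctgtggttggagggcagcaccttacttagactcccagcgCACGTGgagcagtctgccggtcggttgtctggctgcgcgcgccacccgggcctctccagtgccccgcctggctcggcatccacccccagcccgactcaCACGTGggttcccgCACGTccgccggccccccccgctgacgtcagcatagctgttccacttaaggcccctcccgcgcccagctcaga
ALDOC: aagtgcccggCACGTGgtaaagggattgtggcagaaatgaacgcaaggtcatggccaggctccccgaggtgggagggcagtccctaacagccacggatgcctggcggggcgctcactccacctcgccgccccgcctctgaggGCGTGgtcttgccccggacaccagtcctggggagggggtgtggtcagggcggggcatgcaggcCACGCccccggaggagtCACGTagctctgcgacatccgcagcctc
PGK1: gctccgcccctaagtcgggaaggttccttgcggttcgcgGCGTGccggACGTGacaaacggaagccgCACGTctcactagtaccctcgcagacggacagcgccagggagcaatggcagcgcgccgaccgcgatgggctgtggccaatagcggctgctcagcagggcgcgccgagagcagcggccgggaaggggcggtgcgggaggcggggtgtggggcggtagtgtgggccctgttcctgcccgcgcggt
ANGPTL4: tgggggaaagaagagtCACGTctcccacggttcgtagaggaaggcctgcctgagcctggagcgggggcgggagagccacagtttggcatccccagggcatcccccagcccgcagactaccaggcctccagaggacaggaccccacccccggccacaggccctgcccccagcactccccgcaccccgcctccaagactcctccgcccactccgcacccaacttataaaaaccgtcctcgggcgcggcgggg
A match describes letters and is neither a bound site nor a cause. Among the 16 genes that were past 2-fold lower in CAL27/5FU, 13 had a window and 8 of these held ACGTG, against 14 of 21 among the other members. In CAL27/OXA the corresponding figures were 10 of 14 and 12 of 20. A gene counted when any of its windows held ACGTG, and the number of windows per gene was unequal. MXI1 had the most among the genes past 2-fold lower, 3, while HK1 and PFKM among the others had 7 each. The shares are thus not like for like, and their difference was not tested.

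Most of the 39 genes were lower in both resistant lines than in CAL27. In CAL27/5FU, 16 of 39 were past 2-fold lower, where 6.72% of all tested genes were, and 0 were past 2-fold higher, where 8.46% of all tested genes were. In CAL27/OXA, 16 of 39 were again past 2-fold lower, where 9.28% of all tested genes were, and 0 were past 2-fold higher, where 6.54% were. The median log2 ratio of the 39 genes was -0.77 in CAL27/5FU and -0.96 in CAL27/OXA, beside -0.0035 and 0.0055 for all tested genes. The counting interval lay wholly below 0 for 35 members in CAL27/5FU, where this held for 38.0% of all tested genes, and for 36 in CAL27/OXA, where it held for 37.5%. Most members were abundant: 35 of 39 averaged 1000 counts or more, the exceptions being SLC2A3, PFKFB4, CA12 and ANKRD37. Among all genes at that depth 3.61% were past 2-fold lower in CAL27/5FU and 4.83% in CAL27/OXA, and 47.0% and 42.0% had an interval wholly below 0. As a share of all counts, the 39 genes took 4.47%, 2.81% and 2.72% in CAL27, CAL27/5FU and CAL27/OXA. The 16 glycolytic enzymes took 3.39%, 2.43% and 2.43%, and the 23 other genes took 1.08%, 0.376% and 0.288%.

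**Figure D1:**
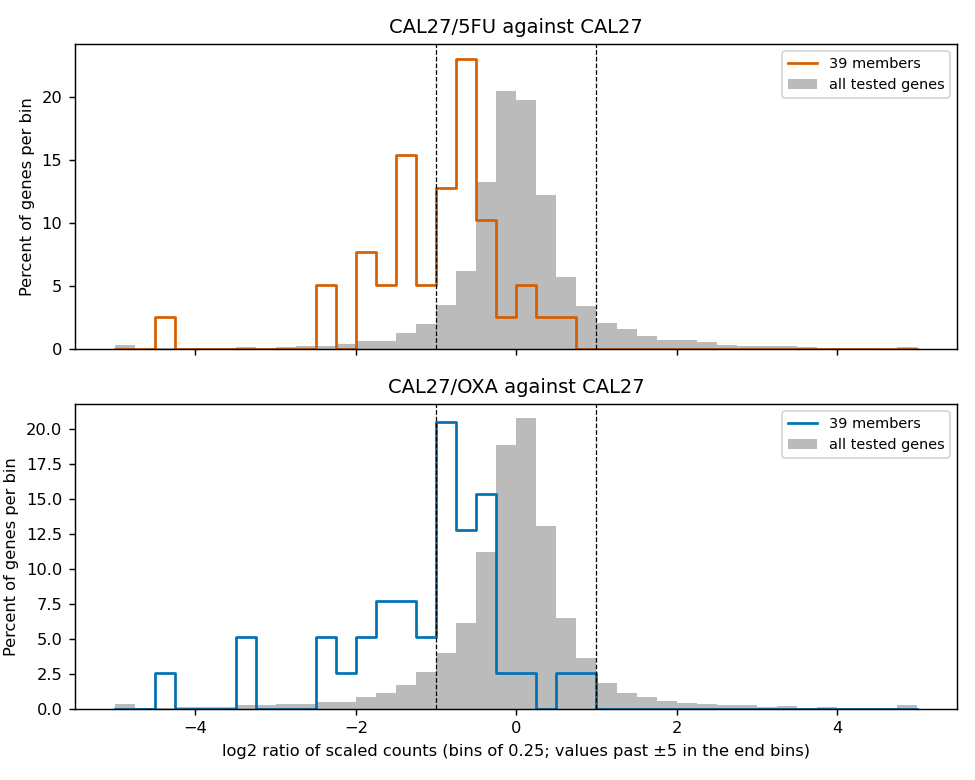
Distribution of log2 ratios to CAL27 for the 39 members (line) and all 13676 tested genes (grey bars), in percent of genes per bin, for CAL27/5FU (top) and CAL27/OXA (bottom). Dashed lines mark 2-fold, and the members lie mostly left of 0, with medians of -0.77 and -0.96.

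**Figure D2:**
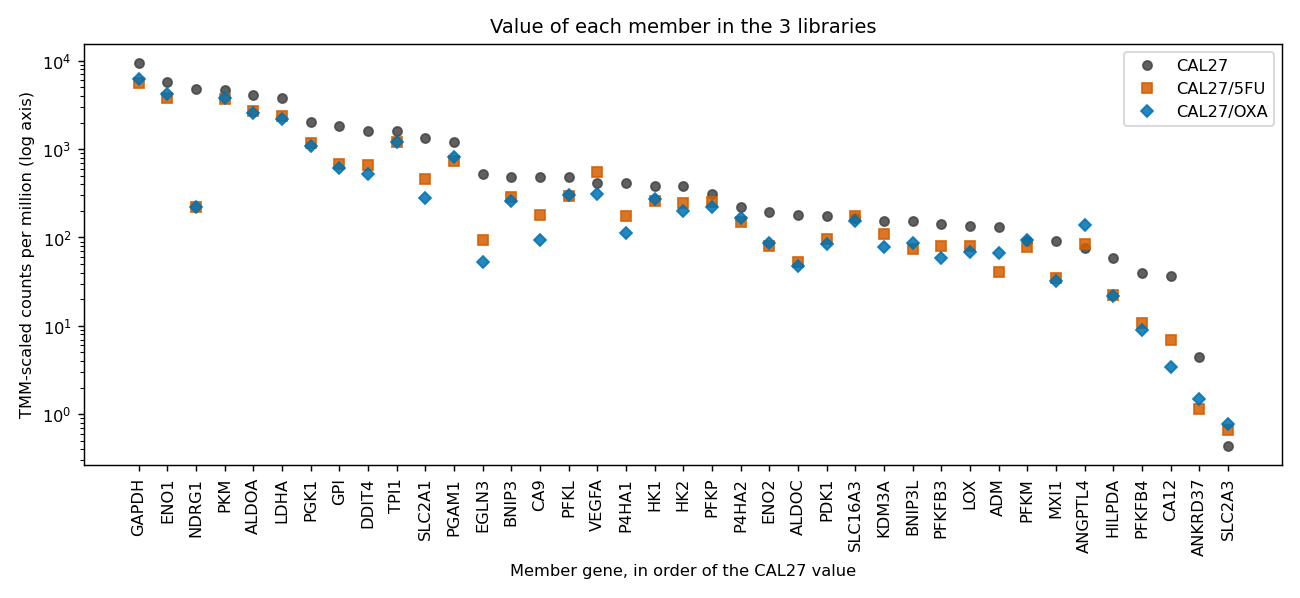
Level of each member in the 3 libraries, in TMM-scaled CPM on a log axis, ordered by the CAL27 level. CAL27 lies above both resistant lines for most genes, and NDRG1 shows the widest gap, from 4740 in CAL27 to 219 and 223.

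Among the transporters, the main glucose transporter gene SLC2A1 (GLUT1; chromosome 1, 42925375 to 42959176, minus strand, GENCODE 29) had levels of 1353, 456 and 282 CPM in CAL27, CAL27/5FU and CAL27/OXA. Its log2 ratio was -1.57 (interval -1.59 to -1.54) in CAL27/5FU and -2.26 (-2.29 to -2.23) in CAL27/OXA, which is 2.97-fold and 4.80-fold lower. SLC2A3 (GLUT3) was nearly absent, with 17, 26 and 34 counts in CAL27, CAL27/5FU and CAL27/OXA. Its intervals of -0.33 to 1.58 and -0.07 to 1.74 hold 0, so no difference was detectable at this depth. SLC16A3, which encodes the lactate exporter MCT4, had levels of 166, 176 and 152 CPM. Its log2 ratios of 0.082 and -0.13 were small, and the sign in CAL27/OXA turned when counts were scaled by library totals.

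Every step from glucose to pyruvate was represented by at least 1 gene with a lower level in both resistant lines. In CAL27/5FU all 16 glycolytic enzyme genes had a ratio below 0, with a median of -0.66 and a range of -1.78 to -0.23, and 3 were past 2-fold lower. In CAL27/OXA 15 of 16 had a ratio below 0, with a median of -0.63, and 3 were past 2-fold lower. Of all 13676 tested genes, 6882 had a ratio below 0 in CAL27/5FU and 6764 in CAL27/OXA, and 6.72% and 9.28% were past 2-fold lower. GPI, ALDOC and ENO2 were the 3 past 2-fold in each line.

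HK1 and HK2, which phosphorylate glucose, were at 386 and 386 CPM in CAL27. HK1 was at 259 CPM in CAL27/5FU and 272 in CAL27/OXA, and HK2 at 247 and 199. The log2 ratios of HK2 were -0.64 (-0.68 to -0.60) and -0.96 (-0.99 to -0.92), so that of CAL27/OXA lay just inside the 2-fold limit. GPI, which turns glucose 6-phosphate into fructose 6-phosphate, had 71768, 26884 and 27278 counts in CAL27, CAL27/5FU and CAL27/OXA. Its log2 ratios were -1.42 (-1.44 to -1.40) and -1.59 (-1.61 to -1.56), both past 2-fold, while those of HK1, HK2 and the phosphofructokinase genes were not.

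Phosphofructokinase commits sugar to glycolysis and is built from the products of PFKL, PFKM and PFKP. PFKL had levels of 479, 297 and 305 CPM in CAL27, CAL27/5FU and CAL27/OXA. PFKP had 309, 252 and 223 CPM. The muscle type PFKM had 92.1, 78.3 and 94.9 CPM, with ratios of -0.23 (-0.30 to -0.16) and 0.043 (-0.022 to 0.11). PFKM was thus the 1 glycolytic gene without a lower level in CAL27/OXA.

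Aldolase splits fructose 1,6-bisphosphate. ALDOA, the abundant form, had levels of 4138, 2669 and 2588 CPM, with log2 ratios of -0.63 and -0.68. ALDOC, the form best known from brain, had 6990, 2050 and 2115 counts, with log2 ratios of -1.78 (-1.85 to -1.71) and -1.91 (-1.98 to -1.84). Only the minor form was past 2-fold lower, in each line.

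TPI1 had levels of 1587, 1206 and 1189 CPM (log2 ratios -0.40 and -0.42). The enzymes of the lower part of the pathway, from GAPDH on, made up most of the counts of the glycolytic enzyme genes. PGK1, the first step that yields ATP, had 2029, 1170 and 1080 CPM (-0.79 and -0.91). PGAM1 had 1192, 742 and 819 CPM (-0.68 and -0.54). These 3 were lower in both lines without passing 2-fold.

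ENO1, the main enolase, had levels of 5704, 3833 and 4155 CPM (log2 ratios -0.57 and -0.46). ENO2, the form best known from neurons, had 7560, 3126 and 3827 counts, with ratios of -1.28 (-1.34 to -1.22) and -1.17 (-1.23 to -1.12). PKM, pyruvate kinase, had 4670, 3684 and 3770 CPM (-0.34 and -0.31). LDHA, which makes lactate, had 147835, 91759 and 97490 counts, with ratios of -0.69 (-0.71 to -0.68) and -0.79 (-0.80 to -0.78).

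**Figure D3:**
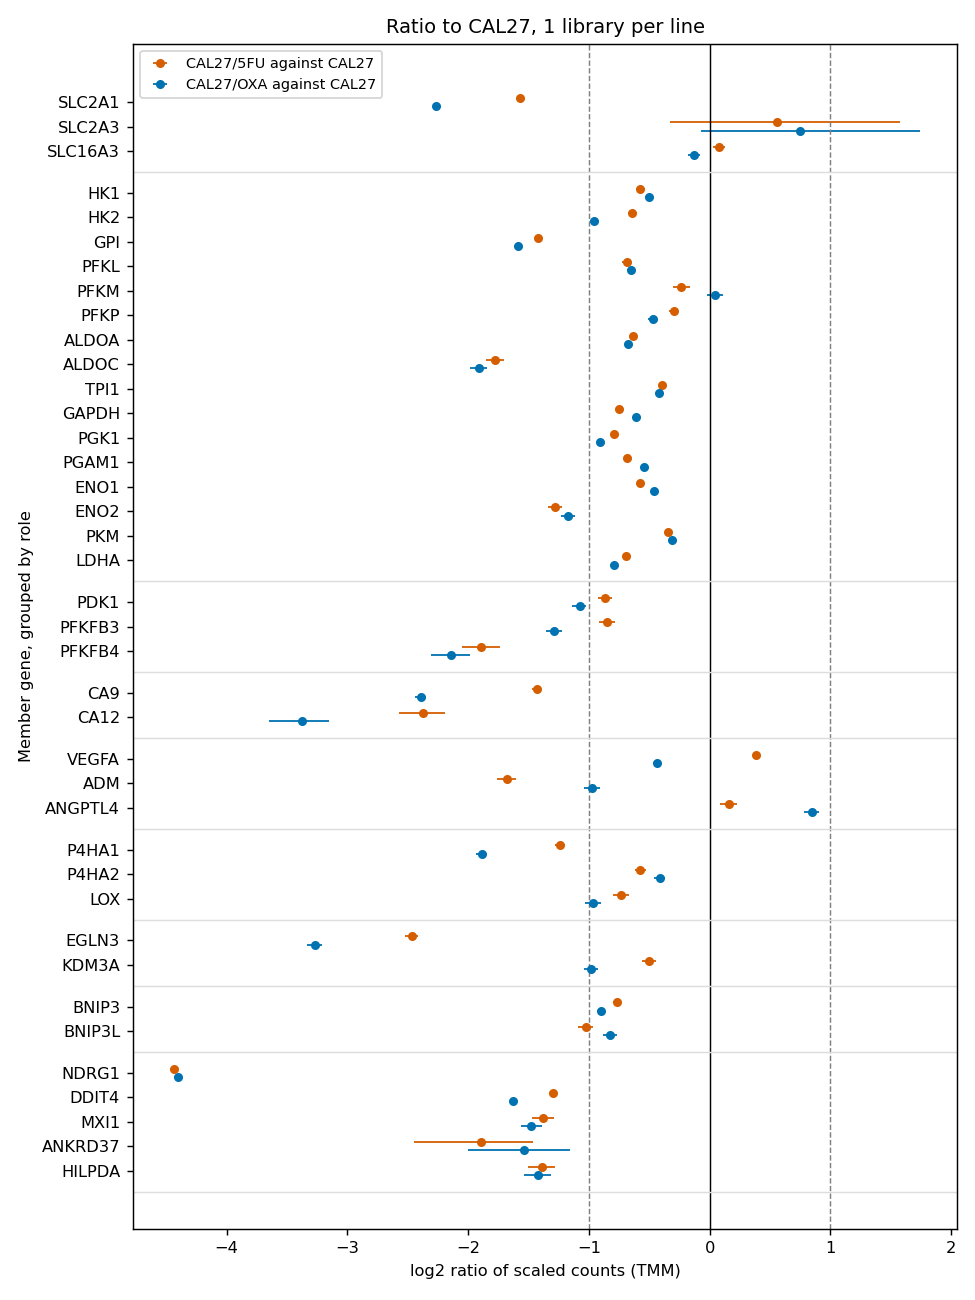
Log2 ratio to CAL27 of each member in CAL27/5FU (orange) and CAL27/OXA (blue), grouped by role, with exact 95% counting intervals and dashed lines at 2-fold. Glycolytic enzymes lie mostly between -1 and 0, and NDRG1 lies near -4.4 in both lines.

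Genes that set the flux through glycolysis were lower in both lines. PFKFB3 and PFKFB4 make and remove fructose 2,6-bisphosphate, the activator of phosphofructokinase. PFKFB4 had 1559, 421 and 402 counts in CAL27, CAL27/5FU and CAL27/OXA, with log2 ratios of -1.89 (-2.05 to -1.74) and -2.14 (-2.31 to -1.99). PFKFB3 had 5599, 3119 and 2611 counts, with ratios of -0.85 and -1.29. PDK1 blocks the entry of pyruvate into the TCA cycle by phosphorylating pyruvate dehydrogenase, and had 6875, 3790 and 3714 counts. Its ratios were -0.87 (-0.92 to -0.81) and -1.08 (-1.14 to -1.02), and the latter came inside 2-fold at -0.94 when counts were scaled by library totals.

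Carbonic anhydrases CA9 and CA12 sit on the cell surface and turn carbon dioxide into bicarbonate and protons. CA9 (chromosome 9, 35673856 to 35681159, plus strand) had 18938, 7048 and 4108 counts in CAL27, CAL27/5FU and CAL27/OXA. It was 2.70-fold lower in CAL27/5FU, with a log2 ratio of -1.43 (-1.47 to -1.39), and 5.25-fold lower in CAL27/OXA, with -2.39 (-2.44 to -2.35). CA12 had far fewer counts, 1414, 273 and 153, with ratios of -2.37 (-2.57 to -2.19) and -3.38 (-3.65 to -3.16). Both genes had the order CAL27, CAL27/5FU, CAL27/OXA from high to low.

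The secreted factors had no common direction. VEGFA, the main angiogenic growth factor, had 16319, 21452 and 13734 counts in CAL27, CAL27/5FU and CAL27/OXA, with log2 ratios of 0.39 (0.36 to 0.42) and -0.44 (-0.47 to -0.41). ANGPTL4, an inhibitor of lipoprotein lipase, had 2971, 3332 and 6092 counts, with 0.16 (0.09 to 0.23) and 0.85 (0.78 to 0.91). ADM, the vasodilator peptide adrenomedullin, had 5128, 1605 and 2972 counts, with -1.68 (-1.76 to -1.60) and -0.98 (-1.04 to -0.91). ANGPTL4 was the only 1 of the 39 genes whose interval lay wholly above 0 in CAL27/OXA. Around ANGPTL4, the median log2 ratio of the 10 nearest tested genes was -0.36 in CAL27/5FU and 0.39 in CAL27/OXA.

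Collagen-modifying enzymes were lower in both lines, to different degrees. P4HA1, an alpha subunit of collagen prolyl hydroxylase, had 16006, 6797 and 4936 counts, with log2 ratios of -1.24 (-1.28 to -1.20) and -1.89 (-1.93 to -1.84). Its paralogue P4HA2 had 8660, 5851 and 7416 counts, with -0.57 and -0.41. LOX, which crosslinks collagen, had 5191, 3133 and 3027 counts, with -0.74 and -0.97, so P4HA1 was the 1 gene of the group past 2-fold.

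Among the oxygen-dependent dioxygenases of the list are EGLN3, a HIF prolyl hydroxylase that HIF itself raises, and KDM3A, a histone H3K9 demethylase. EGLN3 (chromosome 14, 33924231 to 34462774, minus strand) had 20132, 3652 and 2373 counts in CAL27, CAL27/5FU and CAL27/OXA. Its log2 ratios of -2.47 (-2.52 to -2.42) and -3.27 (-3.34 to -3.21) are 5.54-fold and 9.67-fold lower. KDM3A had 6048, 4300 and 3494 counts, with ratios of -0.50 and -0.98.

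BNIP3 and BNIP3L, receptors that mark mitochondria for mitophagy, were lower by close to the 2-fold limit. BNIP3 had 19018, 11208 and 11610 counts, with log2 ratios of -0.77 and -0.90. BNIP3L had 5957, 2938 and 3838 counts, with -1.03 (-1.09 to -0.96) and -0.82 (-0.88 to -0.76). The interval of BNIP3L in CAL27/5FU holds the 2-fold limit, and the ratio came inside it at -0.86 when counts were scaled by library totals.

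NDRG1 stood apart from the other 38 genes. It encodes a stress-induced protein known as a differentiation-related gene and lies on chromosome 8. It had 184650, 8569 and 9925 counts in CAL27, CAL27/5FU and CAL27/OXA, which is 0.442%, 0.0230% and 0.0228% of all counts. It was 21.6-fold lower in CAL27/5FU, with a log2 ratio of -4.44 (-4.47 to -4.41), and 21.2-fold lower in CAL27/OXA, with -4.41 (-4.44 to -4.38). By FPKM, a level per length, NDRG1 ranked 21, 1054 and 1091 among all genes of CAL27, CAL27/5FU and CAL27/OXA. Among the 7432 tested genes that averaged 1000 counts or more, its fall was the 5th largest in CAL27/5FU and the 10th largest in CAL27/OXA. The 10 nearest tested genes had median log2 ratios of -0.77 and -0.93, the lowest around any of the 39 genes, and 3 of the 10 were past 2-fold lower in each line.

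The 4 remaining genes of growth, stress and lipid storage were past 2-fold lower in both lines. DDIT4 (REDD1), an inhibitor of mTORC1, had 62718, 25593 and 23129 counts, with log2 ratios of -1.30 (-1.32 to -1.28) and -1.63 (-1.65 to -1.61). MXI1, a MYC antagonist, had 3522, 1359 and 1443 counts, with -1.38 and -1.48. HILPDA, a lipid droplet protein, had 2274, 872 and 966 counts, with -1.39 and -1.42. ANKRD37, a small ankyrin-repeat protein, had only 172, 45 and 66 counts, with the wider intervals of -2.45 to -1.46 and -2.00 to -1.15.

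Paralogues within a family had unequal ratios, so family make-up differed between the libraries. The make-up is given as shares of the family's summed FPKM in CAL27, CAL27/5FU and CAL27/OXA. LDHA made up 81.9%, 71.9% and 66.1% of LDHA and LDHB, with intervals of 81.7 to 82.1%, 71.7 to 72.2% and 65.9 to 66.4%. LDHB itself had 21470, 23524 and 32812 counts, with log2 ratios of 0.12 and 0.42. EGLN3 made up 80.0%, 47.6% and 32.4% of the EGLN family, while EGLN2 made up 12.4%, 33.7% and 50.4%. EGLN3 was thus the leading form in CAL27 and CAL27/5FU, and EGLN2 in CAL27/OXA. EGLN2 itself had 2805, 2318 and 3307 counts, with log2 ratios of -0.28 and 0.048, so its larger share went with the lower level of EGLN3. P4HA1 made up 60.2%, 48.7% and 35.2% of its family, so P4HA2 became the larger share in both resistant lines. PFKFB4 made up 21.2%, 10.3% and 9.85%, and PFKFB2, which is no member of the list, 16.3%, 27.4% and 37.4%. PFKFB2 itself had 7.93, 8.31 and 9.68 FPKM. HK2 made up 34.4%, 33.2% and 27.4% of the hexokinases. PFKL made up 50.4%, 43.5% and 45.3% of phosphofructokinase. The minor forms ALDOC (4.45%, 2.06% and 1.94%) and ENO2 (3.22%, 1.99% and 1.98%) had smaller shares in both resistant lines. PDK1 made up 69.6%, 63.4% and 61.0% of the PDK family. BNIP3 kept 87.1%, 89.0% and 86.5% of BNIP3 and BNIP3L, and SLC16A3 made up 59.4%, 63.7% and 60.8% of SLC16A1 and SLC16A3.

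**Figure D4:**
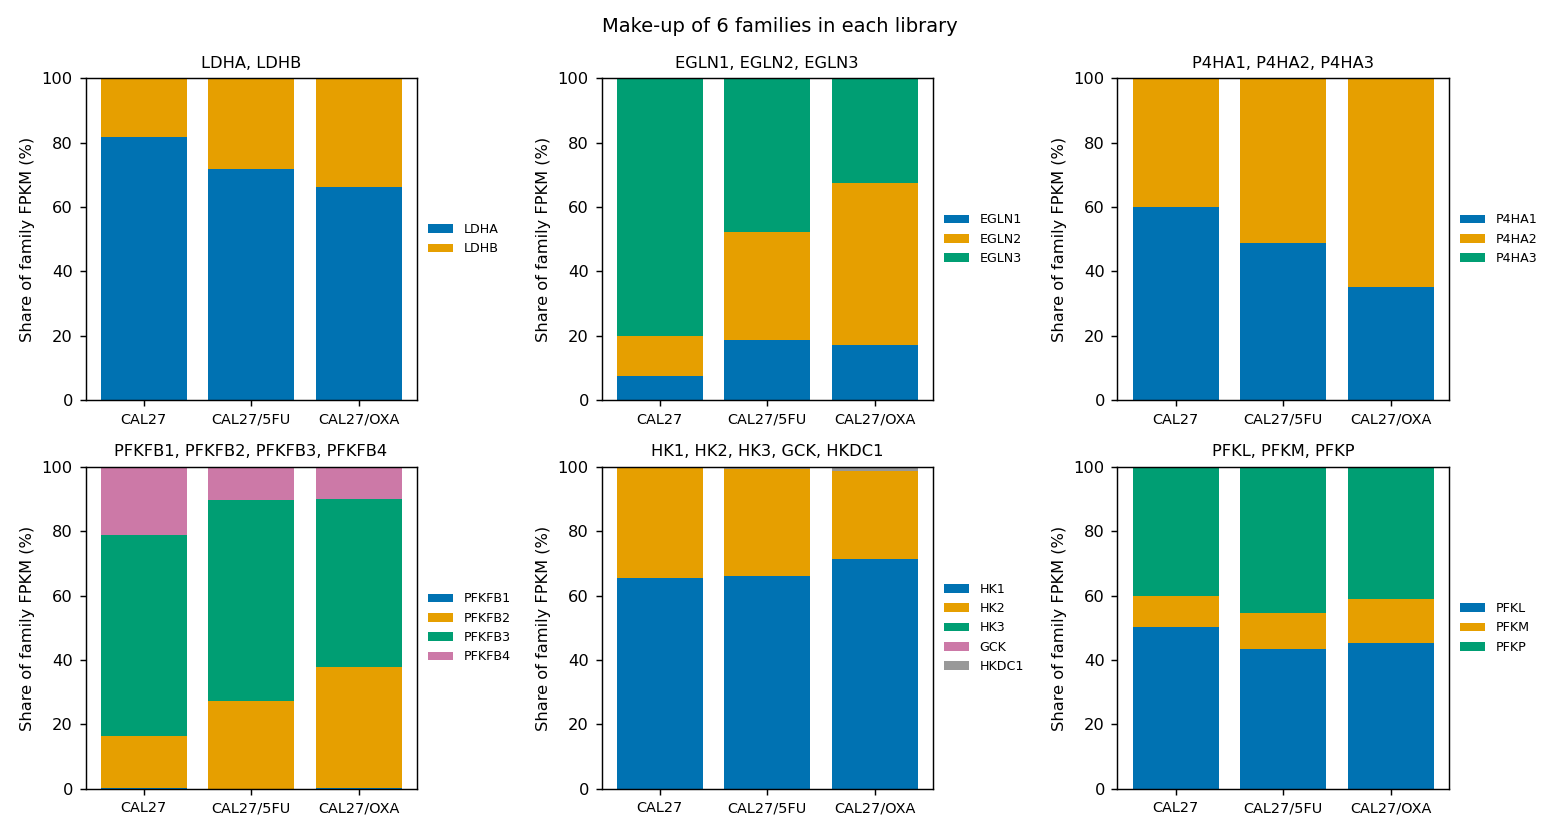
Stacked bars of the share of each paralogue in its family's summed FPKM, in percent, for 6 families in the 3 libraries. LDHA shrinks from 81.9% in CAL27 to 66.1% in CAL27/OXA and EGLN3 from 80.0% to 32.4%, while HK2 and PFKL change by less, from 34.4% to 27.4% and from 50.4% to 45.3%.

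GAPDH served as the internal control for RT-qPCR in the study and is itself a member. It lies on chromosome 12 from 6533927 to 6538374 on the plus strand and had 366244, 218804 and 273127 counts in CAL27, CAL27/5FU and CAL27/OXA. By FPKM it ranked 1, 3 and 2 among all genes. Its log2 ratio was -0.75 (-0.76 to -0.74) in CAL27/5FU and -0.61 (-0.62 to -0.61) in CAL27/OXA, and -0.58 and -0.48 when counts were scaled by library totals. A gene with an equal scaled level in both libraries would therefore read 1.68-fold higher over GAPDH in CAL27/5FU and 1.53-fold higher in CAL27/OXA. Of 15 other genes in use as references, only YWHAZ had lower ratios, of -1.11 and -1.02. The median of the 15 was -0.20 in CAL27/5FU and -0.11 in CAL27/OXA, with ACTB at 0.024 and -0.11 and B2M at 0.28 and 0.42. The sign of ACTB in CAL27/OXA turned when counts were scaled by library totals. Expressed over GAPDH, 20 of the other 38 members were lower in CAL27/5FU and 18 higher, with a median of -0.03, where 10.3% of all tested genes were lower over GAPDH. In CAL27/OXA 26 were lower over GAPDH and 12 higher, with a median of -0.35, where 16.3% of all tested genes were lower. Past 2-fold over GAPDH, 6 genes were lower and 2 higher in CAL27/5FU, and 9 lower and 2 higher in CAL27/OXA. Of all tested genes, 2.75% were past 2-fold lower and 29.9% higher over GAPDH in CAL27/5FU, and 4.39% lower and 21.7% higher in CAL27/OXA.

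**Figure D5:**
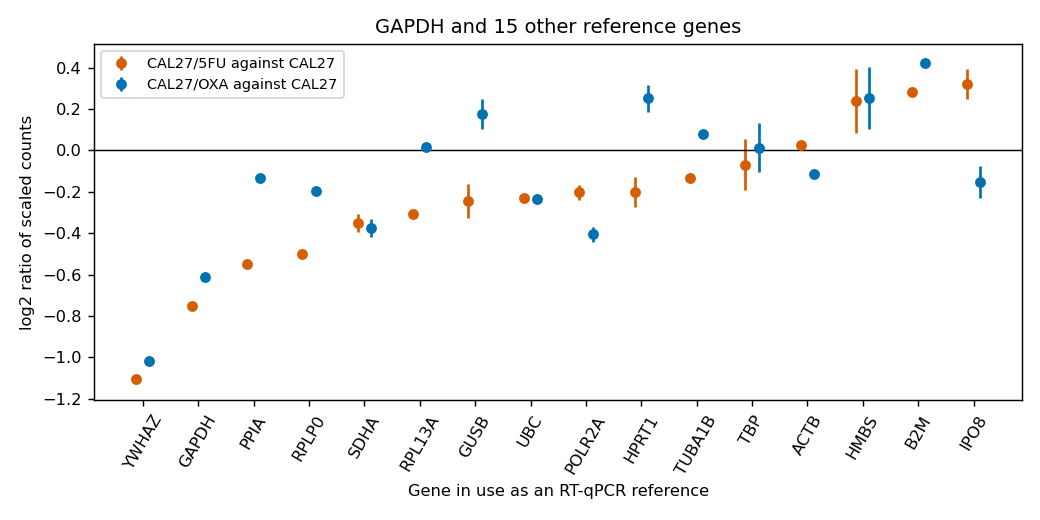
Log2 ratio to CAL27 of GAPDH and 15 other genes in use as RT-qPCR references, in CAL27/5FU (orange) and CAL27/OXA (blue), with exact 95% counting intervals. GAPDH lies at -0.75 and -0.61, and of the others only YWHAZ lies lower.

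The direct comparison of CAL27/OXA with CAL27/5FU uses no CAL27 counts in the ratio. Of the 39 genes, 0 were past 2-fold higher in CAL27/OXA, where 4.18% of all tested genes were, and 1 was past 2-fold lower, where 8.38% were. The 1 gene was CA12, with a log2 ratio of -1.01 (-1.31 to -0.73). Its interval holds the 2-fold limit. The 16 glycolytic enzyme genes lay between -0.31 (HK2) and 0.28 (PFKM), with a median of 0.01 whose sign turned under other scalings. The 23 other genes had a median of -0.21. CA9 (-0.96, interval -1.02 to -0.91), EGLN3 (-0.80, -0.88 to -0.73), VEGFA (-0.83, -0.86 to -0.79), SLC2A1 (-0.69, -0.73 to -0.66) and P4HA1 (-0.64, -0.70 to -0.59) were lower in CAL27/OXA. ADM (0.71, 0.62 to 0.79) and ANGPTL4 (0.69, 0.63 to 0.75) were higher in CAL27/OXA. The 10 nearest tested genes of ANGPTL4 had a median of 0.82 in the same comparison, the highest neighbour median of any member. Of these 10, 0 had a ratio below 0, where 6719 of all 13676 tested genes did. NDRG1 had a ratio of 0.029 (-0.013 to 0.071), whose sign turned under other scalings. The widest gaps between the resistant lines thus lay outside the glycolytic enzymes.

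Other genes of the same pathways were counted for comparison. Of all tested genes, 8.46% were past 2-fold higher and 6.72% lower in CAL27/5FU, and 6.54% higher and 9.28% lower in CAL27/OXA. Of 38 tested HIF targets outside the list, 10 were past 2-fold lower and 0 higher in CAL27/5FU, with a median log2 ratio of -0.63, and 15 were lower and 0 higher in CAL27/OXA, with -0.79. In CAL27/5FU the largest falls included those of FAM162A (-1.69) and PPP1R3C (-1.56). In CAL27/OXA the largest were those of PPFIA4 (-2.71), TGFBI (-1.86) and EFNA3 (-1.73), and TGFBI had 0.34 in CAL27/5FU. Among 23 other genes of glycolysis and glucose handling, 3 were past 2-fold higher and 0 lower in CAL27/5FU, and 2 higher and 3 lower in CAL27/OXA. Their medians of -0.06 and -0.03 turned positive when counts were scaled by library totals. ENO3, the muscle enolase, had 177, 392 and 581 counts, past 2-fold higher in both lines, and GYS1, glycogen synthase, had log2 ratios of -0.97 and -1.30. Of 8 pentose phosphate genes, 0 were past 2-fold in either line, with medians of -0.13 and -0.20. Of 29 genes of pyruvate entry and the TCA cycle, 0 were past 2-fold in CAL27/5FU and 1, PDP2 (1.32), was higher in CAL27/OXA, with medians of -0.08 and -0.18. The pentose phosphate and TCA medians in CAL27/5FU also turned positive under that scaling.

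Genes of the oxygen-sensing machinery had mostly small ratios below 0. Of 15 tested, 12 had a ratio below 0 in CAL27/5FU, with a median of -0.28, and 11 in CAL27/OXA, with a median of -0.19. Of all 13676 tested genes, 6882 and 6764 had a ratio below 0. When counts were scaled by library totals, the medians of the 15 genes were -0.11 and -0.056. Past 2-fold, 1 was higher in CAL27/5FU and 0 in CAL27/OXA, and 0 were lower in either. The 1 gene was HIF1A, the alpha subunit of HIF-1, with 32898, 67262 and 37164 counts in CAL27, CAL27/5FU and CAL27/OXA. Its log2 ratio was 1.02 in CAL27/5FU and -0.014 in CAL27/OXA, where the sign turned under other scalings. HIF protein, which is set mainly by breakdown, was not measured here. EPAS1, which encodes HIF-2 alpha, had 13127, 7366 and 9745 counts, with ratios of -0.84 and -0.62. EGLN1 had -0.43 and -0.80, and VHL had 0.13 and 0.19.

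Some counts may be shared with other genes. GENCODE 29 names 62 pseudogenes after GAPDH, 39 after BNIP3 and 13 after PGAM1, and how multi-mapped reads were counted is not given in the sources used here. Exons of 9 members overlap with another counted gene. CA9 does so with ARHGEF39 on the opposite strand, and PFKFB4 with UCN2 and PGK1 with ATP7A on the same strand. The strand setting of the counting is not given either, and it bears only on overlaps between opposite strands. For the members past 2-fold lower, the median ratio of the 10 nearest tested genes was taken around each, and the median of these values was -0.13 in CAL27/5FU and -0.12 in CAL27/OXA. In each comparison 0 of the 16 had a neighbour median past 2-fold. The share of all tested genes with such a neighbour median is not given here, so this count cannot be read as few or many.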

How the data were processed

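The libraries were made from total RNA with a kit for Illumina sequencing. The submitters' processing notes name CASAVA 1.8, HISAT2 2.0.5 and GRCh38. The counting tool, the annotation and the strand setting are not given in the sources used here. The authors deposited raw read counts per gene symbol, without normalization, and FPKM values, which equal counts divided by length and library total for 14367 of 14367 genes within 0.1%. A further 3 columns of per-sample values per table carry names of the same 3 lines and may be second replicates, but they matched no labelled sample and were not used.

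TMM scaling of the counts was done in edgeR 4.0.16 (R 4.3.3), and log2 values used a prior count of 2. Genes averaging 10 or more counts per library were tested, and a gene past 2-fold was called, without the adjusted p-value that the study also required, since 1 labelled library per line allows none. Intervals are exact 95% Clopper-Pearson intervals (scipy 1.17.1) and cover counting error only, as reads carry no molecular identifiers. The ratio and interval steps were tested on simulated data.

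The members, lists and markers were chosen with earlier results of these data known. Named are all members, 7 genes fixed by name, the up to 3 largest rises and falls past 2-fold per list and comparison among genes averaging 100 or more counts, and all reference and marker genes described. A gene that this rule names is not reported here. Positions came from GENCODE 29, matched by symbol for 18809 genes, and promoter windows from RefSeq (GRCh38.p14). Alternatives numbered 13: scaling by total counts, upper quartile or DESeq2 1.42.0 size factors, other filters and prior counts, FPKM values and other call rules.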

Additional observations from a re-analysis of the deposited data

Results flagged for a closer look

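Ratios of opposite sign in the resistant lines were found for 3 of the 39 genes. The share of all tested genes with opposite signs is not given here, so this count cannot be read as few or many. VEGFA had a log2 ratio to CAL27 of 0.39 in CAL27/5FU and -0.44 in CAL27/OXA. SLC16A3 had 0.082 in CAL27/5FU and -0.13 in CAL27/OXA. PFKM had -0.23 in CAL27/5FU and 0.043 in CAL27/OXA, where its interval holds 0. With 1 library per line the difference was not tested for any of them, and the sign of SLC16A3 in CAL27/OXA turned when counts were scaled by library totals.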

How the results depend on the processing

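No paired analysis was possible because each line has 1 labelled library and no result comes from a replicate test. Over the 10 alternatives that change the values, the number of members past 2-fold lower was 15 to 16 in CAL27/5FU, 15 to 16 in CAL27/OXA and 0 to 1 for CAL27/OXA against CAL27/5FU, and 0 members were past 2-fold higher in each. BNIP3L in CAL27/5FU, PDK1 in CAL27/OXA and CA12 between the resistant lines were the calls lost in any of them. Signs turned for 0 members in CAL27/5FU, for SLC16A3 in CAL27/OXA, and for PFKL, PKM and NDRG1 between the resistant lines. Scaling by library totals moved the median of all tested genes to 0.17 in CAL27/5FU and 0.14 in CAL27/OXA, and that of the members to -0.60 and -0.82. Between the resistant lines the count of 1 lower became 0 with a prior count of 5, with FPKM values at pseudocounts of 1 and 0.1 or a mean FPKM of at least 1, with the whole interval past 2-fold, and past 4-fold. Past 1.5-fold, 27 members were lower in CAL27/5FU (14.0% of all tested genes). In CAL27/OXA 27 were lower (17%) and 2 higher (14.1%), and between the resistant lines 6 were lower (15.1%) and 2 higher (10.2%). Past 4-fold, CAL27/5FU had 3 lower members (2.09% of all tested genes) and CAL27/OXA had 6 (3.01%). Under the call rules the threshold itself sets these changes, and under the other settings the cause was not tested. Leaving out a library was not possible with 1 labelled library per line. Depth limits SLC2A3, with at most 34 counts, and ANKRD37, with at most 172.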
